A study of Mus musculus with 1824 samples.

Results

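Primitive erythroid cells, the first red cells of the mouse embryo, were compared between E7.5 and E8.5 in 53 and 74 cells, chosen by their reads from the 1824 cells of the series. Cells were selected on having at least 100000 reads and at least 10000 reads of the embryonic globin genes *Hba-x*, *Hbb-bh1* and *Hbb-y*, summed, in every 1000000 reads (CPM). The rule selected 53 of the 96 wells of the first of the E7.5 plates whose titles carry a sequencing lane (E7.5 lane plate 1) and 74 of the 96 wells of E8.5 plate 1. These 2 measures chose the cells, so neither is a result here.

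All cells came from chimaeras. *Tet*-TKO embryonic stem cells, which lack the 3 TET enzymes of DNA demethylation and carry H2B-tdTomato under the CAG promoter, were injected into C57BL/6J wild-type blastocysts, which were carried by pseudo-pregnant CD1 females (the strain in the labels is CD1) and collected at E7.5 or E8.5. Embryos were pooled and dissociated, stained for KDR and CD41, and sorted as DAPI-negative singlets into 96-well plates, and RNA was sequenced by Smart-seq2. Part of the cells also went through DNA profiling, in most of them after GpC methylase had labelled open chromatin, and the rest had only their RNA sequenced. The labels describe the methylase for every cell and do not say which plates were which, but the study's cell numbers for these workflows equal the numbers of E8.5 and of E7.5 cells. The labels give the stage of each cell, but not its embryo, its genotype (*Tet*-TKO or wild-type host) or its sort gate. Each stage is therefore 1 plate with no replicate embryo, and stage, plate, workflow, genotype and gate cannot be told apart, so no test was run and no p-value is given. Single wells with 1 cell were not treated as replicates. E8.5 plate 2, where 80 of 96 wells met the same rule, shows how far plates of 1 stage can differ. The other plates held at most 9 such cells each.

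Primitive erythroid cells arise in the blood islands of the yolk sac, enter the circulation with a nucleus and mature together. They make embryonic haemoglobin from the alpha-like chain zeta (*Hba-x*) and the beta-like chains beta-h1 (*Hbb-bh1*) and epsilon-y (*Hbb-y*), and epsilon-y is known to gain on beta-h1 as they mature. Haem is built in steps that begin and end in the mitochondrion. The factors GATA1 and KLF1 drive globin, haem and membrane skeleton genes by binding GATA and CACCC sequences.

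The promoter windows of 4 genes that the comparison turns on are shown for those sequences: the embryonic globins *Hbb-y* and *Hba-x*, the first haem enzyme *Alas2* and the red cell surface gene *Ermap*. Each window runs from 250 bases before to 50 bases after the RefSeq start site on GRCm38.p6, read 5′ to 3′ on the strand of the gene. Capitals mark the GATA sequence AGATAA on either strand, its variant TGATAA likewise, and CCNCNCCC, the pattern taken here for a CACCC box, likewise. The letters CACCC outside this pattern, on either strand, are left in lower case, as in *Hbb-y*, *Hba-x* and *Ermap*.
Hbb-y, chr7:103853158-103853457, minus strand: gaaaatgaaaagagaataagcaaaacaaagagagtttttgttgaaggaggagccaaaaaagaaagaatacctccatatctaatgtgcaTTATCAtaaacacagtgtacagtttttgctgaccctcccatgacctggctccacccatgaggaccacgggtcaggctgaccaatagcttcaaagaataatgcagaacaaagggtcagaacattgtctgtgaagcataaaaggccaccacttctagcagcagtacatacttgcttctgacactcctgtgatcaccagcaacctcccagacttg
Hba-x, chr11:32276350-32276649, plus strand: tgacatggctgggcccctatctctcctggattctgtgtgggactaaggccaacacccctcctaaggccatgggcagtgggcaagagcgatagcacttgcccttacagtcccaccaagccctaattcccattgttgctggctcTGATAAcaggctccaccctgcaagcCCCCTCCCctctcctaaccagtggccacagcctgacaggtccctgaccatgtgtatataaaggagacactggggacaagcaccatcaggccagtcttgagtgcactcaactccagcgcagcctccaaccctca
Alas2, chrX:150547167-150547466, plus strand: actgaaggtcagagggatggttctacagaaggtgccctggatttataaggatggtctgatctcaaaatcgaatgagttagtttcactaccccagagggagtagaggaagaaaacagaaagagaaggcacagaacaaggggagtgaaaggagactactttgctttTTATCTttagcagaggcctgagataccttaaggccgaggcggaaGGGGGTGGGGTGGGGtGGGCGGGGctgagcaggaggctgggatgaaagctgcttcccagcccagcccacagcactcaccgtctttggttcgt
Ermap, chr4:119189946-119190245, minus strand: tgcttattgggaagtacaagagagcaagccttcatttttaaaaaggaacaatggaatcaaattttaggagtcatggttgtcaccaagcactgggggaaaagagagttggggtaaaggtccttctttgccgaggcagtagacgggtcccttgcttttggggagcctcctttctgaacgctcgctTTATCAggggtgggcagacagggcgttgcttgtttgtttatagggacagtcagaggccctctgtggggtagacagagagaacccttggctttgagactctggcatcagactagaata
Each of the 4 windows held 1 GATA sequence, which began 86 bases before the start in *Alas2*, 67 in *Ermap* and further upstream in *Hbb-y* and *Hba-x*. *Hba-x* held 1 CCNCNCCC and *Alas2* held 4, some of which overlap. Of all 32851 windows of this length, 18.6% held AGATAA or TGATAA and 49.5% held CCNCNCCC. Of the list genes with a window, 3 of 13 haem synthesis genes and 9 of 23 red cell membrane genes held a GATA sequence, and 12 of 13 and 17 of 23 held CCNCNCCC. A gene counted if any of its windows held the sequence, whereas the shares of all windows count single windows. The 2 are therefore not like for like. CANNTG, the E-box, was in 72.3% of all windows, not in those of *Hbb-y*, *Alas2* and *Ermap*, and at 2 places in *Hba-x*. These matches are a description of the letters only.

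Of the markers that name these cells, *Hba-x* and *Hbb-bh1* were used to select them. *Klf1*, the remaining marker, was at 387.9 CPM at E7.5 and 630.1 CPM at E8.5 over the pooled reads and had a read in 96.2% of E7.5 cells thinned to 100000 reads and in all 74 E8.5 cells. Mesoderm and mesenchyme genes summed to 0.720 CPM at E7.5 and 0.714 CPM at E8.5, with 6 and 7 of 16 genes without a read. Yolk sac endoderm genes summed to 6.42 and 36.7 CPM. The E7.5 threshold cut through a continuum: the lowest cells inside lay at 10002, 13160 and 17544 CPM and the highest outside at 8591, 7639 and 5550 CPM. At E8.5 the lowest cell inside lay at 50046 CPM and the highest outside at 2300 CPM. The sum ran from 10002 through a median of 74559 to 303028 CPM per cell at E7.5 and from 50046 through 213907 to 360484 CPM at E8.5, so 15 E7.5 cells lay below every E8.5 cell and 8 E8.5 cells above every E7.5 cell. The 38 E7.5 and 66 E8.5 cells between 50046 and 303028 CPM are called the shared range below. The range does not make the stages equal in the sum, which over the pooled reads was 120582 CPM at E7.5 and 185689 CPM at E8.5 within it.

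The selected cells held 62475759 reads at E7.5, from 138334 to 3370501 a cell with a median of 1045375, and 81221642 reads at E8.5, from 223966 to 2132677 with a median of 1065061. With each cell thinned to 100000 reads, the median cell had reads of 6048 genes on the E7.5 plate, against 5577.5 on E8.5 plate 1. Mitochondrially encoded genes took a median of 2.998% and 1.11% of a cell's reads. Globin genes took 9.91% of the pooled reads at E7.5, 20.4% at E8.5 and 7.14% on E8.5 plate 2, so values are also given with the 14 globin genes left out of the library size. At least 10 reads of *Xist* or of the Y-linked genes were found in all 53 cells at E7.5 and in 70 of 74 at E8.5, but in 15 of 80 on E8.5 plate 2, whose part in the differences between the E8.5 plates was not tested.

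The 14 selected cells in well columns 11 and 12 of E8.5 plate 1 stood apart from the 60 cells in columns 1 to 10, which was noticed after their values were seen. *Hbb-bh1* ran from 59975 through a median of 121771 to 149841 CPM in columns 11 and 12 and from 27682 through 64750 to 96470 CPM in the others. *Hba-x* lay lower there, from 7925 through 27335 to 38963 CPM, against a median of 73821 CPM elsewhere. *Alas2* had a median of 149.6 CPM there and 1510.3 CPM elsewhere, its ranges nearly separate, and ribosomal protein genes took a median of 10.2% and 7.29% of reads. On E8.5 plate 2 the 13 cells of these columns likewise had a higher median of *Hbb-bh1*, 82099 against 28229 CPM, and a lower one of *Alas2*, 93.7 against 268.1 CPM. On E7.5 lane plate 1, in 9 and 44 cells, *Hbb-bh1* also had a higher median there, 56232 against 29527 CPM, while *Alas2* had medians of 493.5 and 424.3 CPM. *Hba-x* did not lie lower in these columns on the latter 2 plates. Its medians were 9162 and 6540 CPM on E8.5 plate 2 and 54347 and 35986 CPM on E7.5 lane plate 1. The labels do not say what these columns held. Values with the 14 cells set apart are given below for some genes and groups of genes only.

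*Hbb-y* differed more between the stages than the other embryonic globins, whose sum chose the cells, so all levels here are descriptions. Over the pooled reads it was at 10892 CPM (exact 95% Poisson interval 10866 to 10918) at E7.5 and 68261 CPM (68204 to 68318) at E8.5, a log2 ratio of 2.65. Per cell it ran from 1.64 through a median of 898.6 to 71829 CPM at E7.5 and from 35.9 through 70221 to 218569 CPM at E8.5. The groups overlapped, but 34 of 74 E8.5 cells lay above every E7.5 cell and 94.6% lay above the E7.5 median. Such intervals cover counting error only, and since reads carry no molecular identifier they are narrower than the true counting error. The spread between cells was far wider.

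*Hbb-bh1* was at 35165 and 67420 CPM, with per-cell medians of 30383 and 65779 CPM, and 10 E8.5 cells lay above every E7.5 cell, all of them in well columns 11 and 12. *Hba-x* was at 41142 and 61046 CPM, with medians of 39687 and 68907 CPM, and no E8.5 cell lay above every E7.5 cell. Over the shared range of the globin sum *Hbb-y* had a log2 ratio of 1.87, against 0.52 of *Hbb-bh1* and 0.04 of *Hba-x*. The sum contains these genes and was still higher at E8.5 within the range. E8.5 plate 2 did not repeat these levels: *Hbb-y* was at 16283 CPM there with a median of 510.8 CPM, and *Hba-x* at 15492 CPM with a median of 6562 CPM, both medians below those of E7.5.

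**Figure D1:**
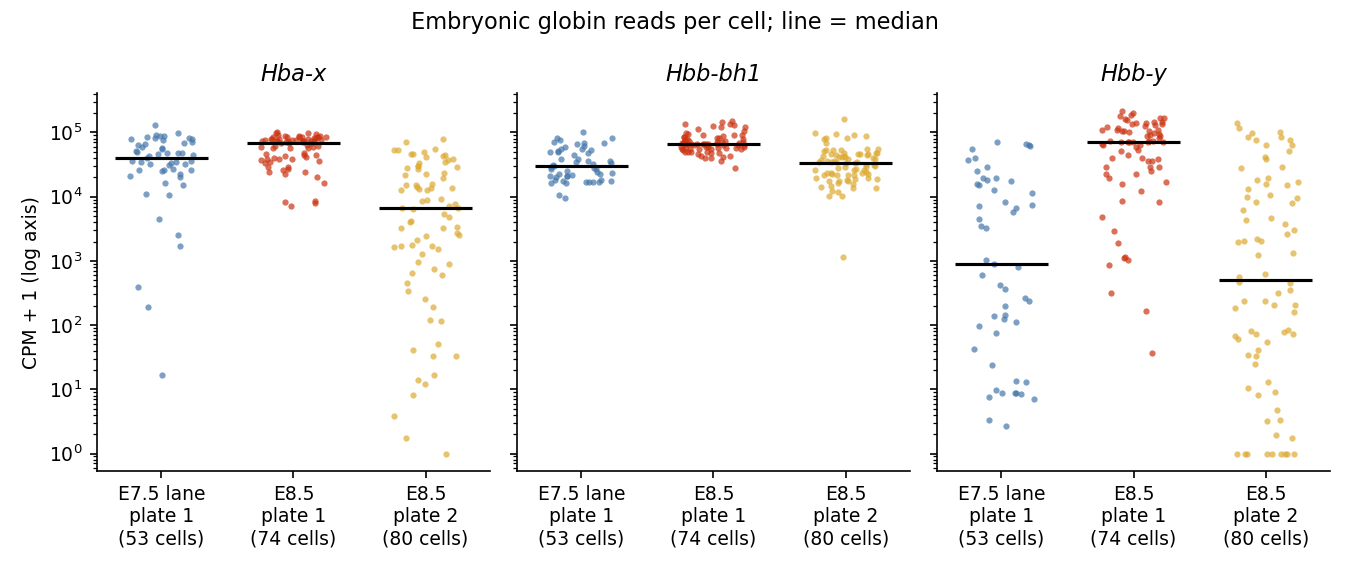
Reads of the 3 embryonic globin genes in each selected cell, as CPM + 1 on a log axis, by plate, where a point is a cell and a line the median. *Hbb-y* spreads over several powers of 10 on every plate, with a median of 898.6 CPM at E7.5, 70221 CPM on E8.5 plate 1 and 510.8 CPM on E8.5 plate 2.

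The make-up of the beta-like globins differed accordingly. *Hbb-y* made up 23.6% of the reads of *Hbb-y* and *Hbb-bh1* at E7.5 and 50.3% at E8.5, or 23.1% and 49.5% per exon length. Per cell the share ran from 0.00614% through a median of 3.03% to 63.3% at E7.5 and from 0.0713% through 50.2% to 77.03% at E8.5. *Hbb-y* outnumbered *Hbb-bh1* in 3 of 53 E7.5 cells and 38 of 74 E8.5 cells. On E8.5 plate 2 the pooled share was 31.4%, the median cell was at 1.45%, and 10 of 80 cells had more *Hbb-y*. In the shared range the pooled share was 26.8% in 38 E7.5 cells, 48.2% in 66 cells of E8.5 plate 1 and 40.1% in 36 cells of E8.5 plate 2.

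Within each plate, cells with more embryonic globin had a larger *Hbb-y* share. Spearman's rho of the share with the globin sum was 0.66 over 53 cells at E7.5, 0.82 over 74 cells at E8.5 and 0.72 over 80 cells on E8.5 plate 2. The sum contains *Hbb-y* and the cells of a plate share 1 library preparation, so these values are descriptions.

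**Figure D2:**
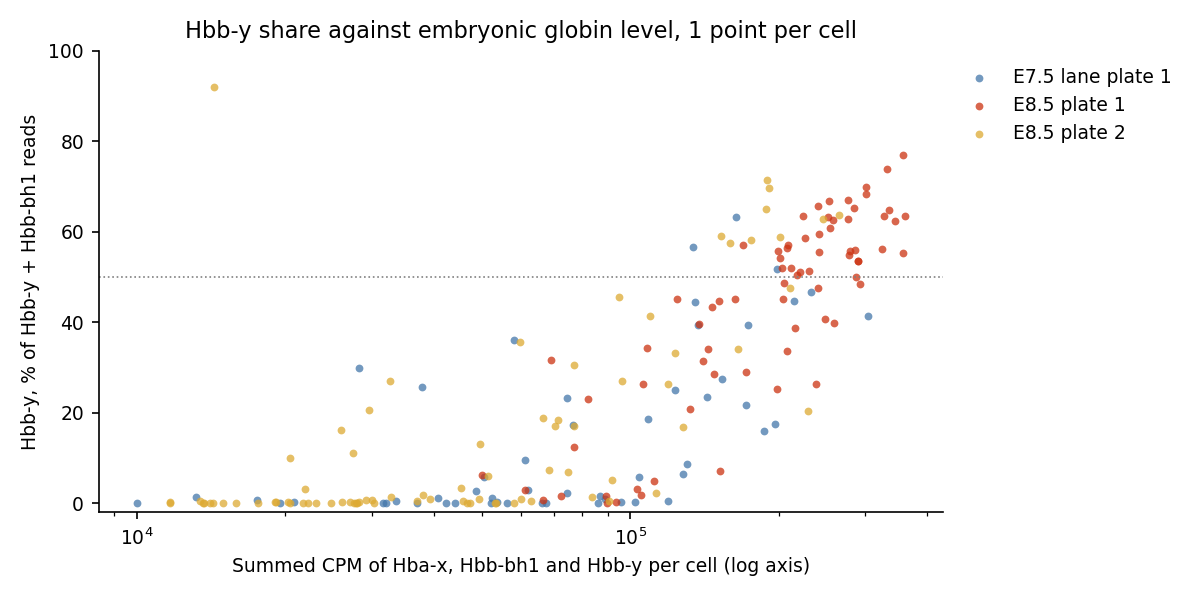
*Hbb-y* as a percentage of *Hbb-y* and *Hbb-bh1* reads against the summed CPM of the 3 embryonic globins (log axis), 1 point per cell, coloured by plate. The shares of all 3 plates are near 0 in most cells of low sum and spread up to 63.3% at E7.5, 77.03% on E8.5 plate 1 and 92.1% on E8.5 plate 2.

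The adult alpha chain genes *Hba-a1* and *Hba-a2* are near-identical, and their split differed between plates, with *Hba-a2* at 50.4 CPM at E7.5 and 2004 CPM at E8.5, so only their sum is compared. The sum was at 10160 CPM at E7.5 and 6996 CPM at E8.5, a log2 ratio of -0.54. It ran from 13.9 through a median of 7303 to 30340 CPM per cell at E7.5 and from 426.9 through 7886 to 15716 CPM at E8.5, so the pooled value was lower at E8.5 while the median cell was higher. As a share of all alpha-like reads the pair took 19.8% at E7.5 and 10.3% at E8.5. The adult beta gene *Hbb-bs* was at 272.5 and 462.2 CPM, 0.571% and 0.339% of beta-like reads, and *Hbb-bt*, its neighbour and close relative, at 47.4 and 136.5 CPM. *Hbb-bh0*, another beta-like gene beside *Hbb-bh1*, was at 1350 CPM at E7.5, 49.01 CPM on E8.5 plate 1 and 1507 CPM on E8.5 plate 2. It was above the highest E8.5 plate 1 cell in 25 of 53 E7.5 cells, and the E8.5 plates stood further apart in it than E7.5 and E8.5 plate 2.

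Across the transcriptome, 8012 genes reached 10 CPM over the pooled reads of either plate, and a gene was called when its CPM differed at least 2-fold with 1 CPM added to both. On total library size 7.69% of these genes were called higher at E8.5 and 14.8% lower, the latter 1186 genes, around a median log2 ratio of 0.01. With globin genes left out of the library size, which moved the median to 0.19, 11.5% were higher and 12.2% lower, so the split between higher and lower calls rests on the scaling. E8.5 plate 2 over E7.5 gave 15.2% higher and 8.53% lower of 8340 genes, and it shares its E7.5 cells with the first comparison. E8.5 plate 1 over E8.5 plate 2, both of the same stage, gave 3.07% higher and 12.5% lower of 8083 genes. The share of genes past 2-fold between plates of 1 stage was thus 15.5%, against 22.5% between the stages. The genotype of the cells is not known on any of these plates, so neither share can be assigned to plate or stage alone.

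Haem synthesis genes were higher on E8.5 plate 1 as a group. Of 15 genes measured, 8 were called higher and none lower, with a median log2 ratio of 1.00 against 0.01 over all genes and a background of 7.69% called higher. In the shared range of the globin sum the median was 0.69. With E8.5 plate 2 in place of plate 1 it was 0.12, with 1 gene called higher, against 15.2% of all genes. On E8.5 plate 1 the list summed to 7662 CPM in well columns 11 and 12 and to 12246 CPM in columns 1 to 10.

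*Alas2*, which makes the first haem precursor, was at 419.5 CPM at E7.5 and 1365 CPM at E8.5. Per cell it ran from 0 through 426.8 to 1136 CPM and from 10.4 through 1311 to 4736 CPM, and 40 of 74 E8.5 cells lay above every E7.5 cell, all of them in well columns 1 to 10. In columns 11 and 12 it was at 173.7 CPM, below E7.5, and without these cells its log2 ratio was 1.88. It was at 405.5 CPM on E8.5 plate 2, close to E7.5. Of the enzymes that follow, *Alad* was at 890.7 and 1045.5 CPM, *Uros* at 133.4 and 446.9 CPM and *Urod* at 298.4 and 572.6 CPM. The log2 ratios were 0.23, 1.74 and 0.94, so *Alad*, the second enzyme of the pathway, differed least of these.

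*Cpox* and *Ppox*, the oxidases of the late steps, were at 224.5 and 776.6 CPM and at 89.7 and 403.7 CPM, with log2 ratios of 1.79 and 2.16. On E8.5 plate 2 their log2 ratios over E7.5 were 0.77 and 1.01. *Fech*, which inserts the iron, was at 541.3 and 778.8 CPM, a log2 ratio of 0.52 that was 0.09 in the shared range. *Tmem14c*, a mitochondrial porphyrin transporter, nearly separated the groups. Its cells ran from 193.2 through 794.1 to 1583 CPM at E7.5 and from 634.8 through 2458 to 4535 CPM at E8.5, and 68 of 74 E8.5 cells lay above every E7.5 cell. Its log2 ratio was 1.63, 1.58 in the shared range and 0.53 on E8.5 plate 2.

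Red cell membrane and skeleton genes were higher on E8.5 plate 1 and not on E8.5 plate 2. Of 27 genes measured, 14 were called higher and 1 lower on plate 1, against 7.69% and 14.8% of all genes, with a median log2 ratio of 1.05, or 0.71 in the shared range. On E8.5 plate 2 none of these 27 was called higher and 8 were called lower, against a background of 8.53%, with a median of -0.07. *Slc4a1*, the band 3 anion exchanger, was at 301.5 CPM at E7.5, 1287 CPM on E8.5 plate 1 and 72.1 CPM on E8.5 plate 2. In well columns 11 and 12 of E8.5 plate 1 it was at 573.3 CPM, against 1397 CPM in columns 1 to 10. Its median cell was at 33.01, 1330 and 0 CPM, while single cells reached 2289, 3191 and 1637 CPM, so each plate held cells with and without it. *Ermap*, a surface protein of red cells, was at 55.7, 325.3 and 14.9 CPM, and the Rh proteins *Rhd* and *Rhag* at 12.4, 62.6 and 1.31 CPM and at 92.96, 233.3 and 24.6 CPM. For these 4 genes the order of the plates was the same, with E7.5 between the E8.5 plates.

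In other genes of the list the E8.5 plates stood closer together. *Epb42* (protein 4.2) was at 79.7, 255.1 and 115.7 CPM at E7.5, E8.5 plate 1 and E8.5 plate 2, *Add1* and *Slc43a1*, an adducin and an amino acid transporter, at 89.6, 222.6 and 138.7 CPM and at 94.6, 278.2 and 153.5 CPM. *Ank1*, the ankyrin that ties spectrin to band 3, was an exception at 81.1, 145.7 and 9.50 CPM, and on plate 1 it did not reach 2-fold on total library size (0.84) but did without globin genes (1.02). *Cd44*, an adhesion receptor that erythroblasts are known to lose as they mature, was the 1 gene called lower, at 42.1 and 3.61 CPM, with 49.1% of E7.5 cells and 6.76% of E8.5 cells holding a read after thinning.

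**Figure D3:**
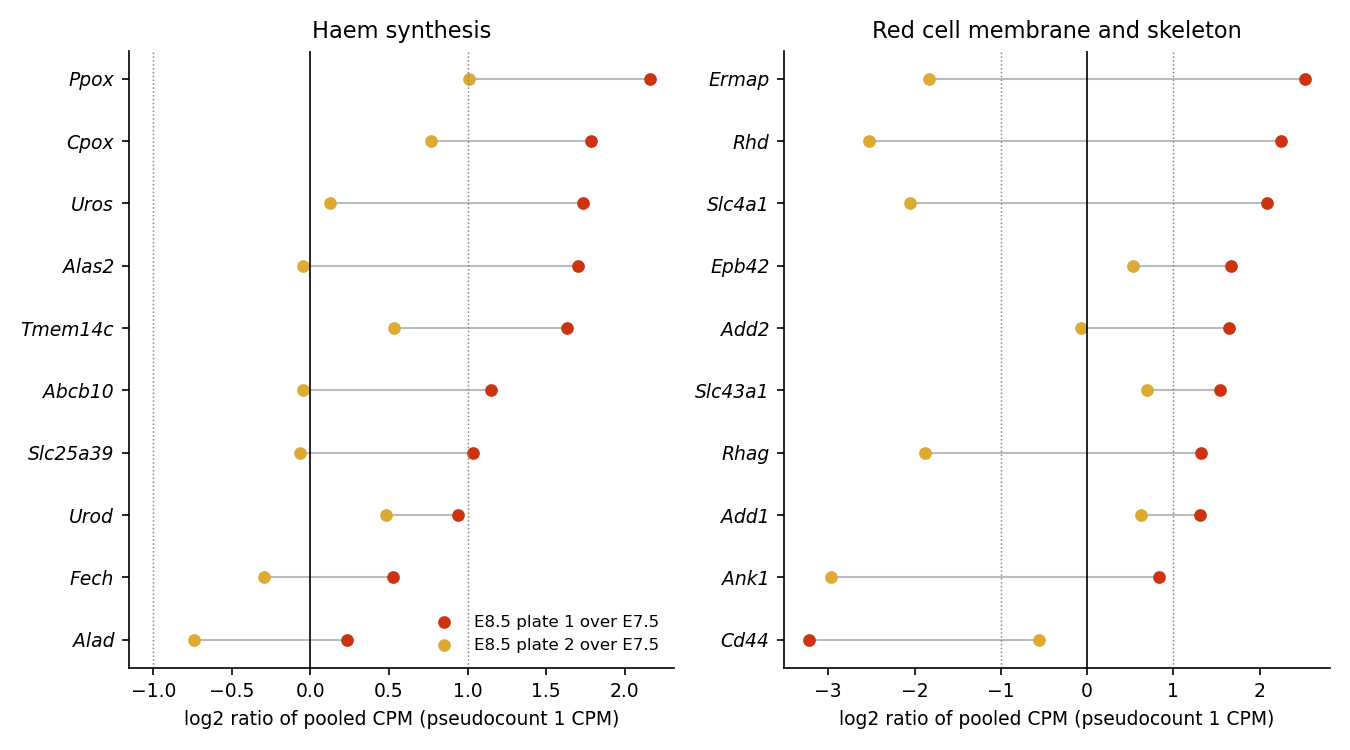
log2 ratio of pooled CPM over E7.5 for the haem synthesis genes (left) and red cell membrane and skeleton genes (right) named in the text, with E8.5 plate 1 in red and E8.5 plate 2 in yellow and dotted lines at 2-fold. Plate 1 lies right of plate 2 for every gene drawn but *Cd44*. Among those on opposite sides of 0 are *Slc4a1*, *Ermap*, *Rhd*, *Rhag* and *Ank1*. *Alas2*, *Abcb10*, *Slc25a39* and *Add2* are too, with plate 2 just below 0.

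Of 17 red cell enzymes and protective proteins, 5 were called higher and 2 lower, against 7.69% and 14.8% of all genes, with a median of 0.74, and on E8.5 plate 2 the median was 0.02. *Car2*, the carbonic anhydrase of red cells, was at 1297, 3105 and 2369 CPM on E7.5, E8.5 plate 1 and E8.5 plate 2, and *Gpx1*, a glutathione peroxidase, at 1953, 4542 and 2344 CPM. In *Gpx1* 53 of 74 E8.5 plate 1 cells lay above every E7.5 cell. *Pklr*, the pyruvate kinase of red cells and liver, was at 11.2, 69.2 and 2.65 CPM, and *Bpgm*, which makes 2,3-bisphosphoglycerate, at 85.4, 205.9 and 73.9 CPM. The 2 lower genes were *Sod1* (superoxide dismutase) at 1242, 179.2 and 519.8 CPM and *Txn1* (thioredoxin) at 1186, 487.9 and 613.9 CPM.

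Most iron genes stayed within 2-fold. Of 18 genes, 2 were called higher and none lower, against 7.69% and 14.8% of all genes, with a median of 0.30. *Tfrc*, the transferrin receptor, was at 803.5 and 710.1 CPM, a log2 ratio of -0.18, or 0.00 with globin genes left out, and its cells overlapped over nearly the whole range. *Slc25a37* (mitoferrin 1) was at 821.1 and 1242 CPM, and at 250.7 CPM on E8.5 plate 2. The 2 called genes were *Steap3*, an endosomal ferrireductase, at 69.1 and 166.2 CPM and *Eif2ak1*, the haem-regulated kinase of translation, at 124.99 and 272.4 CPM. *Steap3* was at 19.1 CPM and *Eif2ak1* at 119.9 CPM on E8.5 plate 2.

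Most erythroid regulators stayed within 2-fold. Of 24 genes, 2 were called higher and 4 lower, near the 7.69% and 14.8% of all genes, with a median of 0.18. *Gata1* was at 304.6 CPM at E7.5, 364.004 CPM on E8.5 plate 1 and 368.1 CPM on E8.5 plate 2, and its cells overlapped over nearly the whole range. *Klf1* was at 387.9, 630.1 and 163.9 CPM, with median cells at 394.1, 651.4 and 153.01 CPM, so E7.5 again lay between the E8.5 plates. The genes called higher were *Hemgn*, a nuclear protein of blood cells, at 62.1, 193.6 and 20.03 CPM and *Tcf3*, a partner of TAL1, at 37.1, 95.05 and 108.97 CPM. Only the latter was higher than E7.5 on both E8.5 plates.

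The regulators called lower were *Runx1*, *Klf13*, *Cbfa2t3* and *Rb1*. *Runx1*, a factor of blood emergence, was at 108.7, 32.3 and 139.01 CPM and *Cbfa2t3*, a corepressor of the GATA1 and TAL1 complex, at 76.4, 35.9 and 80.5 CPM, with E8.5 plate 2 above E7.5 in both. *Klf13*, a relative of KLF1, was at 86.2, 30.1 and 68.8 CPM and *Rb1*, the retinoblastoma protein, at 20.7, 4.72 and 6.22 CPM. *Myb*, which marks immature and definitive progenitors, was low on both compared plates, at 10.4 and 6.37 CPM, and at 84.3 CPM on E8.5 plate 2.

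Among erythropoietin and Kit signalling genes, 2 of 16 were called higher and 5 lower, against 7.69% and 14.8% of all genes, with a median of -0.48. On E8.5 plate 2 there were 3 higher and 3 lower, with a median of 0.06. *Epor*, the erythropoietin receptor, was at 122.4, 312.4 and 256.1 CPM on E7.5, E8.5 plate 1 and E8.5 plate 2, above 2-fold on both, and 25 of 74 E8.5 plate 1 cells lay above every E7.5 cell. These were all in well columns 1 to 10, and *Epor* was at 93.4 CPM in columns 11 and 12. *Tfr2*, a second transferrin receptor that binds the erythropoietin receptor, was at 7.09, 18.7 and 0.369 CPM. *Kit*, the receptor of early progenitors, was at 43.1, 21.3 and 48.6 CPM, just short of 2-fold. The lower genes included *Pim1*, a kinase induced by cytokines, at 79.2 and 22.6 CPM, the survival gene *Bcl2l1* at 74.3 and 29.5 CPM and *Ptpn6*, a phosphatase that limits receptor signalling, at 36.4 and 5.06 CPM. *Lyn* and *Socs2* were the others, and *Lyn* was at 53.5 CPM on E8.5 plate 2 against 26.1 CPM at E7.5.

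Cell cycle genes differed little. Of 32 drivers, 1 was called higher and 2 lower, against 7.69% and 14.8% of all genes, and the median of 0.29 was 0.37 on E8.5 plate 2. *Mki67* was at 419.3 and 670.3 CPM and had reads in every cell. *Myc* was the gene called higher, at 103.9 and 270.5 CPM, and *Cdk6* and *Mycn* were lower, at 22.2 and 1.26 CPM and at 10.6 and 1.71 CPM, and *Mycn* was at 43.9 CPM on E8.5 plate 2. Of 17 genes of organelle clearance and enucleation, 3 were called higher and 2 lower, against 7.69% and 14.8% of all genes, with a median of -0.15 that was 0.32 on E8.5 plate 2. *Ube2l6*, an enzyme of ubiquitin and ISG15 transfer, was at 78.2, 336.5 and 263.8 CPM, *Tent5c*, a poly(A) polymerase, at 25.1, 81.8 and 35.9 CPM and *Fbxo7*, an F-box protein, at 25.3, 64.9 and 19.5 CPM. The mitophagy receptors *Bnip3l* and *Bnip3* were lower, at 358.8 and 170.98 CPM and at 77.7 and 24.7 CPM.

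Of 8 enzymes that write or remove DNA methylation, 1 was called higher and 2 lower, against 7.69% and 14.8% of all genes, while on E8.5 plate 2 1 was higher and none lower, and the genotype of each cell was not in the labels. *Tet1*, *Tet2* and *Tet3* were low at both stages, at 11.03 and 2.63, 15.7 and 14.5, and 23.4 and 27.96 CPM. *Dnmt1*, which keeps methylation through division, was at 137.9 and 190.9 CPM, and *Dnmt3b*, which adds it, at 76.96 and 26.7 CPM. *Tdg*, the glycosylase that excises TET products, was at 13.4, 45.9 and 32.1 CPM on E7.5, E8.5 plate 1 and E8.5 plate 2 and was the gene called higher. Of 19 glycolysis and low-oxygen genes, 2 were called higher and 3 lower, against 7.69% and 14.8% of all genes. Their median was -0.27, or -0.093 without globin genes in the library size and 0.39 on E8.5 plate 2, with *Ldha* at 3787, 3243 and 5541 CPM, *Hk2* at 82.4, 12.3 and 28.5 CPM and *Pfkm* at 20.7, 66.4 and 73.9 CPM.

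The E7.5 selection also held reads of megakaryocyte and platelet genes. All 10 genes of that list that were measured were called lower on E8.5 plate 1, against 14.8% of all genes, with a median log2 ratio of -2.72. Most of them passed the 10 CPM filter only through E7.5, so on E8.5 plate 1 they could only be lower. On E8.5 plate 2, 3 of the 10 were lower and 2 higher than E7.5, against 8.53% and 15.2% of all genes. Their sum over 14 genes ran from 13.3 through a median of 146.1 to 7342 CPM per cell at E7.5, from 0 through 76.3 to 2099 CPM on E8.5 plate 1 and from 6.22 through 545.1 to 3157 CPM on E8.5 plate 2. It exceeded 1000 CPM in 7 of 53, 1 of 74 and 16 of 80 cells. The list was higher in cells of low globin sum. Pooled, it was at 1969 CPM in the 15 E7.5 cells below the shared range and at 340 CPM in the 38 cells within it, against 133.3 CPM in the 66 E8.5 cells of the range. In the shared range the median log2 ratio of the list was -0.45.

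*Pf4*, platelet factor 4, was at 182.6 CPM at E7.5, with 10 of 53 cells above 10 CPM and a highest cell at 2980 CPM. It had no read in the 74 E8.5 plate 1 cells, an upper 95% Poisson limit of 0.0454 CPM, and was at 1.15 CPM on E8.5 plate 2. Within the shared range it was at 0.979 CPM at E7.5. *Itga2b*, the CD41 integrin used in the sort, was at 119.5, 56.9 and 232.7 CPM, and *Itgb3*, its partner, at 143.96, 44.8 and 88.3 CPM. *Plek*, the platelet protein pleckstrin, was at 268.3, 2.11 and 11.5 CPM and stayed apart within the shared range, at 181.5 and 2.27 CPM. Of 13 myeloid genes the 3 that were measured, *Spi1*, *Coro1a* and *Laptm5*, were lower on both E8.5 plates. They passed the 10 CPM filter only through E7.5, so no other direction was open to them. The sum of the myeloid list was 124.4, 2.36 and 8.66 CPM on E7.5, E8.5 plate 1 and E8.5 plate 2. The median E7.5 cell was at 0.918 CPM and the highest at 1857 CPM, against a highest of 80.1 CPM on E8.5 plate 1. How far such reads carry into other differences was not tested.

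**Figure D4:**
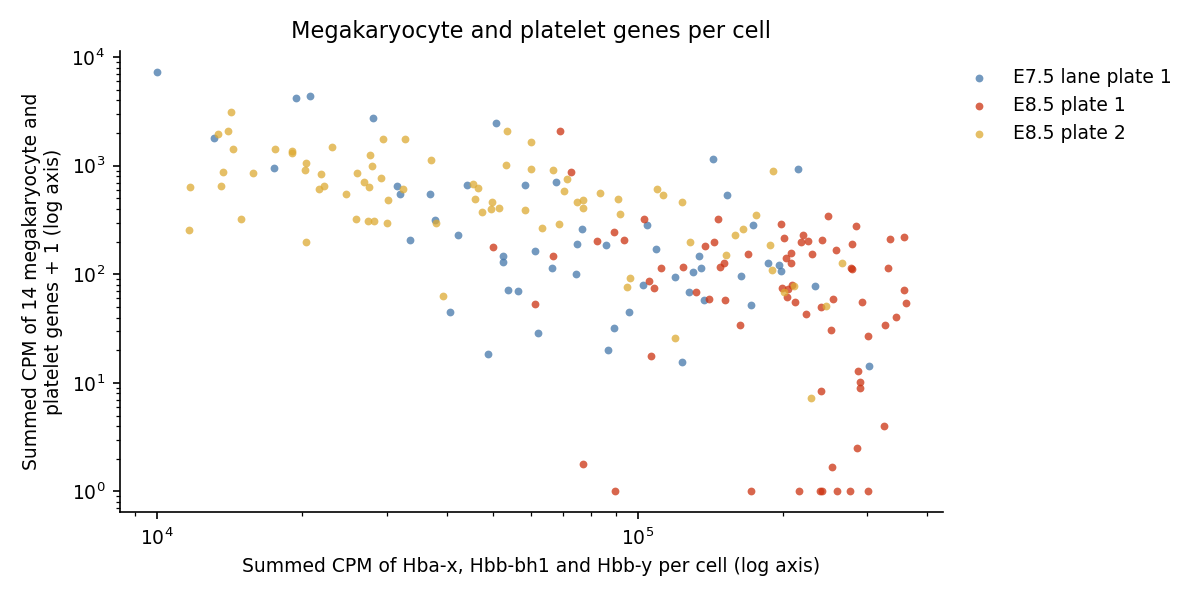
Summed CPM + 1 of 14 megakaryocyte and platelet genes against the summed CPM of the 3 embryonic globins, both on log axes, 1 point per cell, coloured by plate. The highest values, up to 7342 CPM, are in E7.5 cells of low globin sum, and the E8.5 plate 1 cells reach 2099 CPM.

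By the rule for naming genes outside the lists, 93 protein-coding genes were at least 2-fold higher than E7.5 under both scalings and on both E8.5 plates, and more were at least 2-fold lower. The 10 largest on the higher side were *Hspa1a*, *Rpl29*, *Tgm2*, *Tmcc2*, *Ube2l6*, *Hist1h1c*, *Gapdh*, *Uhmk1*, *Ubac1* and *Rpl34*. *Hspa1a*, the inducible heat shock protein HSP70, was at 0.336 CPM at E7.5, 122.8 CPM on E8.5 plate 1 and 23.03 CPM on E8.5 plate 2, and 45 of 74 E8.5 plate 1 cells lay above every E7.5 cell. In well columns 11 and 12 of E8.5 plate 1 it was at 9.40 CPM, against 140.3 CPM in columns 1 to 10. *Tgm2*, a transglutaminase, was at 17.3, 87.99 and 72.7 CPM, *Tmcc2*, a coiled-coil protein of the endoplasmic reticulum, at 20.7, 103.1 and 104.02 CPM, and *Hist1h1c*, a linker histone, at 27.6, 110.2 and 69.05 CPM. *Uhmk1*, a kinase, was at 21.5, 81.01 and 74.6 CPM, and *Ubac1*, a ubiquitin ligase subunit, at 28.2, 105.2 and 66.3 CPM. Cells of the plates overlapped in all of these.

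*Gapdh*, *Rpl29* and *Rpl34* have many processed copies in the genome, and their values depend on how reads shared with a copy were counted. *Rpl29* was at 36.7, 252.9 and 148.8 CPM, *Rpl34* at 176.9, 641.5 and 424.8 CPM and *Gapdh* at 29.8, 113.2 and 195.6 CPM, with 73, 71 and 60 of 74 E8.5 plate 1 cells above every E7.5 cell. Over all wells with at least 100000 reads, whatever the cell type, other E7.5 plates reached the E8.5 range. *Rpl29* lay at 33.4 to 536.8 CPM on the 6 E7.5 lane plates, 24.3 to 148.035 CPM on the 5 other E7.5 plates and 112.5 to 280.7 CPM on the 8 E8.5 plates. *Rpl34* lay at 116.3 to 835.04, 464.4 to 568.3 and 334.3 to 722.9 CPM, and *Gapdh* at 31.2 to 216.95, 50.1 to 220.5 and 115.8 to 229.96 CPM. Genes annotated as processed pseudogenes were instead lower on E8.5 plate 1 as a group. Of 260 measured, 55% were called lower on E8.5 plate 1 and 36 genes higher, against 14.8% and 7.69% of all genes, with a median of -1.18. They took 1.81% of reads at E7.5, 0.726% on E8.5 plate 1 and 1.04% on E8.5 plate 2. Over all wells with at least 100000 reads, they took 1.20 to 1.77% on the 6 E7.5 lane plates. The 5 other E7.5 plates lay at 0.990 to 1.12% and the 8 E8.5 plates at 0.688 to 1.06%, so the lane plates stood above every other plate.

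The 10 largest on the lower side were *Gm11361*, *Eno1b*, *Arl5c*, *Tmsb4x*, *Polr2k*, *Zfp948*, *Gm2000*, *Abcg1*, *Tmcc1* and *Zfp367*. *Eno1b*, a copy of the enolase *Eno1*, was at 370.3, 7.12 and 71.8 CPM on E7.5, E8.5 plate 1 and E8.5 plate 2, and the predicted genes *Gm11361* and *Gm2000* at 424.8, 5.82 and 4.17 CPM and at 102.8, 6.44 and 5.17 CPM. In these 3 genes all 53 E7.5 cells lay above all 74 E8.5 plate 1 cells. *Polr2k*, an RNA polymerase subunit, was at 489.2, 29.6 and 22.1 CPM, *Abcg1*, a sterol transporter, at 102.5, 7.60 and 8.42 CPM, and *Tmcc1*, a relative of *Tmcc2*, at 88.6, 6.88 and 8.13 CPM. *Zfp367*, a zinc finger protein, was at 230.5, 21.95 and 26.9 CPM, *Zfp948* at 97.96, 6.08 and 42.1 CPM and *Arl5c*, a small GTPase, at 161.2, 2.83 and 4.88 CPM. *Tmsb4x*, the actin-binding thymosin beta-4, was at 1669, 73.4 and 84.3 CPM, but its median cells stood at 84.99 and 48.01 CPM, and single E7.5 cells reached 13002 CPM.

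Of 10 mitochondrially encoded genes measured, all were called lower on E8.5 plate 1, against 14.8% of all genes, with a median of -2.52. Without globin genes in the library size 9 were called lower, and on E8.5 plate 2 7 were, with a median of -1.59. Some of the 10, *mt-Co2* among them, passed the 10 CPM filter only through E7.5, so on the E8.5 plates they could only be lower. *mt-Co1*, a cytochrome c oxidase subunit, was at 11087, 5157 and 5544 CPM, and without globin genes in the library size its log2 ratio was -0.92. *mt-Nd2*, a complex I subunit, was at 2316, 205.04 and 405.7 CPM. *mt-Co2* was at 84.2, 1.61 and 1.60 CPM, with all 53 E7.5 cells above all 74 E8.5 plate 1 cells.

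In several of these genes the 6 E7.5 lane plates stood apart from the other E7.5 plates as well as from the E8.5 plates. Over all wells with at least 100000 reads, whatever the cell type, *mt-Co2* lay between 27.3 and 82.9 CPM on the 6 lane plates, between 1.75 and 3.40 CPM on the 5 other E7.5 plates and between 0.885 and 1.73 CPM on the 8 E8.5 plates. *Gm11361* lay between 14.3 and 427.5 CPM, between 2.63 and 5.64 CPM and between 3.58 and 5.18 CPM. *Polr2k* lay between 115.95 and 411.2 CPM, between 27.3 and 54.9 CPM and between 18.2 and 31.8 CPM, and *Tmcc1* between 51.6 and 77.7 CPM, between 10.1 and 25.05 CPM and between 7.34 and 23.6 CPM. In all 4 the lane plates stood above every other plate, of E7.5 as of E8.5. The same held for 3 more of the lower genes named above. *Gm2000* lay between 64.8 and 164.9 CPM on the lane plates, between 7.68 and 11.3 CPM on the other E7.5 plates and between 4.74 and 6.20 CPM on the E8.5 plates. *Arl5c* lay between 75.4 and 290.02 CPM, between 8.91 and 25.4 CPM and between 2.55 and 9.43 CPM, and *Eno1b* between 197.7 and 530.04 CPM, between 84.1 and 150.07 CPM and between 6.96 and 125.6 CPM. *mt-Co1* did not do so, with 4175 to 10683 CPM on the lane plates, 3607 to 8793 CPM on the other E7.5 plates and 2593 to 5417 CPM on the E8.5 plates. What set the lane plates apart was not tested.

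**Figure D5:**
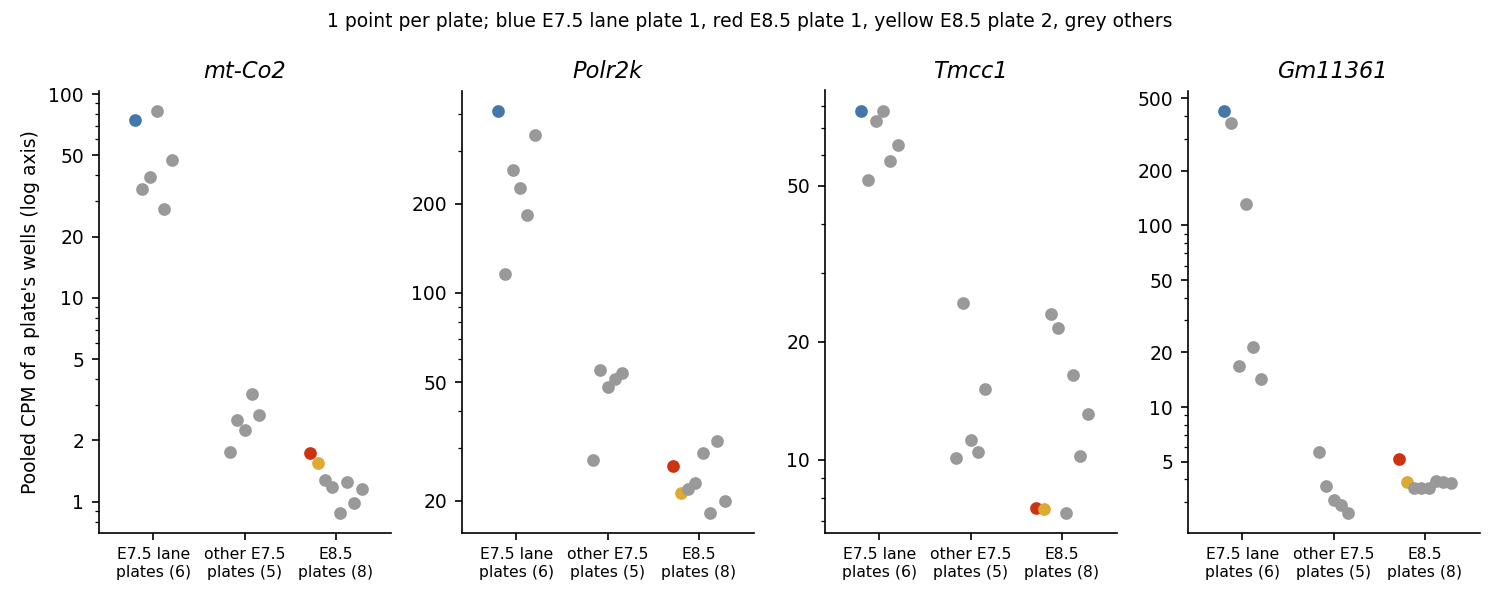
Pooled CPM (log axes) of *mt-Co2*, *Polr2k*, *Tmcc1* and *Gm11361* over the wells with at least 100000 reads of each plate, 1 point per plate, in 6 E7.5 lane plates, 5 other E7.5 plates and 8 E8.5 plates, with the compared plates in colour. The lane plates lie above all others in each of the 4 genes.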

How the data were processed

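RNA of single cells was sequenced by Smart-seq2, and the deposited table holds read counts of 55487 Ensembl genes in 1824 cells. The authors aligned reads with HISAT2 (2.1.0) to GRCm38 and made the counts with featureCounts. Strand and multi-mapping settings were not given in the sources used here, so near-identical copies and overlapping or antisense genes are uncertain. Stage and plate were read from the labels, and no 2 selected cells held identical counts.

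Reads of the selected cells were summed per plate and scaled to CPM of total reads (Python 3.11.15, numpy 2.4.6, scipy 1.17.1, pandas 2.3.3, matplotlib 3.10.9), with exact Poisson intervals. With 1 plate a stage and no animal named for any cell, there were no replicates, so the quasi-likelihood test of the study was not run, and genes were called by fold alone among those with at least 10 CPM on either plate, with a pseudocount of 1 CPM. The ratios were tested on simulated counts. No doublet caller was run, since singlets had been sorted. Shares of cells with a read were computed after thinning each cell to 100000 reads. The members and gene lists were chosen with earlier results of these data known.

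All list genes could be named, and a few of them are not reported here. Besides these, the 10 largest and 10 smallest ratios were named among protein-coding genes that were neither globin nor mitochondrial, had at least 50 CPM on the higher plate and a read in at least 50% of its thinned cells, and differed at least 2-fold one way under both scalings and on both E8.5 plates. Alternatives were globin-free and mitochondria-free library sizes, edgeR (4.0.16) and DESeq2 (1.42.0) scaling factors under R 4.3.3, per-cell means, thinning, other pseudocounts, filters and thresholds, and other plates, and, added after seeing the data, leaving out well columns 11 and 12. Promoter windows came from RefSeq on GRCm38.p6, and 284 of 380 list genes had one.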

Additional observations from a re-analysis of the deposited data

How the results depend on the processing

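Of 88 called genes among those named, 88 kept their sign with globin genes left out of the library size, with edgeR or DESeq2 factors, and with read minimums of 50000 or 200000. This could hardly have come out otherwise. A change of scaling moves all ratios by nearly the same amount, and the median over all genes went from 0.01 to 0.19, 0.04 and 0.03. A gene past 2-fold thus could not change sign, and the read minimums kept nearly the same cells. For the 10 largest and 10 smallest ratios among them, the naming rule itself had also fixed the sign without globin genes. Without well columns 11 and 12 of E8.5 plate 1, and with columns 1 to 10 of both plates, both added after the data had been seen, 9.33% and 9.58% of genes were higher and 15.8% and 15.9% lower, the haem medians were 1.08 and 1.05 and the membrane medians 1.20 and 1.15, and no called gene reversed. The plate decided most. With E8.5 plate 2 in place of plate 1, 15.2% of genes were higher and 8.53% lower, the median log2 ratio over all genes was 0.32, the difference in *Hbb-y* share of the beta-like reads was 7.53 percentage points rather than 27.3, the difference in globin share of all reads was -2.77 points rather than 10.5, and the medians were 0.12 for haem synthesis, -0.072 for membrane and skeleton and -0.26 for megakaryocyte genes. The megakaryocyte median was -0.49 at a globin threshold of 50000 CPM, -0.45 in the shared range and -0.61 over all plates of each stage. A pseudocount of 5 CPM left 5.03% of genes higher. The cause was not tested in any of these.

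The 10 largest and 10 smallest ratios named by rule had been chosen as past 2-fold one way on both E8.5 plates. Their agreement was thus fixed in advance. They count among the 86 called genes measured with E8.5 plate 2, of which 62 kept their sign and 41 stayed past 2-fold. The 24 others had log2 ratios of 0.16 (*Hbb-bh0*), -1.37 (*Hbb-bt*), -1.58 (*Hemgn*), 0.35 (*Runx1*), 0.075 (*Cbfa2t3*), -0.049 (*Alas2*), -0.050 (*Abcb10*), -0.067 (*Slc25a39*), -1.80 (*Steap3*), -0.059 (*Eif2ak1*), -2.05 (*Slc4a1*), -1.83 (*Ermap*), -2.53 (*Rhd*), -1.87 (*Rhag*), -0.072 (*Add2*), -1.74 (*Pklr*), -0.21 (*Bpgm*), 1.01 (*Lyn*), 1.95 (*Mycn*), -0.36 (*Fbxo7*), 1.47 (*Fli1*), 0.93 (*Rab27b*), 0.96 (*Itga2b*) and 0.44 (*Tet1*). Over all plates 4 reversed, with 0.33 (*Lyn*), 0.69 (*Mycn*), 0.53 (*Fli1*) and 0.33 (*Itga2b*), and *Rab27b* was at 1.37 with the 50000 CPM threshold and 1.47 in the shared range.

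With 1 plate a side, no value has a replicate check, and embryo, genotype, gate and workflow cannot be separated from stage. Reads without molecular identifiers limit what the intervals cover. No paired analysis was possible because no result comes from a test and the cells carry no shared replicate number.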

Other observations

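Other gene groups were described in the same cells. Of 5 haematoendothelial genes measured, 1 was lower on E8.5 plate 1, against 14.8% of all genes. On E8.5 plate 2, 3 of the 5 were higher than E7.5, against 15.2% of all genes. *Fli1*, a factor of endothelium and megakaryocytes, was at 44.05 CPM at E7.5, 6.91 CPM on E8.5 plate 1 and 123.7 CPM on E8.5 plate 2, and *Hhex* was at 29.5, 16.2 and 98.3 CPM. Summed over the list, cells ran from 3.60 through a median of 99.3 to 1168 CPM, from 0 through 46.9 to 672.8 CPM and from 14.03 through 289.4 to 1375 CPM. Of 6 integrin and adhesion genes, 2 were lower on plate 1, against 14.8% of all genes, and *Cd24a*, a surface protein of immature red cells, was at 130.7, 256.2 and 27.9 CPM.

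None of 5 posterior and imprinted growth genes was called, against 7.69% of all genes called higher and 14.8% lower. *H19*, an imprinted RNA, was at 96.6, 171.3 and 18.4 CPM, and *Grb10*, an imprinted growth inhibitor, at 344.2, 527.5 and 509.1 CPM. Of 7 cell cycle inhibitors, *Mxd1* was called higher, against 7.69% of all genes, at 8.02, 18.1 and 9.05 CPM. The 1 measured gene of the ectoderm and epiblast list was *Dnmt3b*. Reads of *Xist* alone, of Y-linked genes alone, of both and of neither, with at least 10 reads needed, were found in 21, 31, 1 and 0 cells at E7.5, in 33, 37, 0 and 4 on E8.5 plate 1 and in 2, 12, 1 and 65 on E8.5 plate 2.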
